A study of Mus musculus with 9 samples.

Results

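The genes described are the PARP genes and Dtx3l listed in a table of RNA counts from mouse brain injected with an adeno-associated virus (AAV). Members were taken by symbol, as Parp followed by a number, together with Dtx3l, and 9 of the 1710 listed genes met that rule: Parp3, Parp4, Parp8, Parp9, Parp10, Parp11, Parp12, Parp14 and Dtx3l. The mouse annotation GENCODE M21 names 12 genes of the form Parp plus a number. The other 4, Parp1, Parp2, Parp6 and Parp16, were not among the listed genes. The label given to the set, interferon-induced PARP enzymes, names 6 of the 9 genes. The symbol rule also takes in Parp3, Parp4 and Parp8.

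The tissue was wild-type (WT) and labelled "brain ctx", and it was taken at the virus-infected centre 10 days after a stereotaxic injection, that is, an injection aimed by skull coordinates. The groups PBS, LowDose and HighDose had 3 libraries each. PBS names a salt buffer, and the treatment label, a stereotaxic viral injection, is the same for all 9 libraries. The series text names the serotype AAV9, and the amounts of virus and the gene it carried were not used here. The labels do not state whether libraries were made from different mice, so the errors and tests measure only the spread between libraries, which may be technical. Library totals lay between 18.3 M and 23.7 M reads or read pairs, M standing for mega.

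PARP proteins transfer ADP-ribose from the metabolite NAD+ to proteins or nucleic acids, a modification known as ADP-ribosylation. Most interferon-induced members add a single unit, and some, such as PARP9 and PARP14, also hold macrodomains, folds that bind ADP-ribose. DTX3L is a ubiquitin ligase of the Deltex family that pairs with PARP9. Several of these genes are known as interferon-stimulated genes in many cell types.

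Every listed gene, the 9 described here included, differed at least 2-fold in mean FPKM (counts scaled by transcript length and library total) between some pair of groups. A test of these genes therefore repeats part of the choice that listed them. The test was edgeR's quasi-likelihood test with Benjamini-Hochberg adjustment over the 1583 listed genes that passed a filter on low counts. All 9 members passed it. Levels in CPM are counts divided by the library total in M reads.

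In HighDose against PBS all 9 genes were higher, and they fell into a set of 6 with large changes and a set of 3 with small ones. Parp14, Parp10, Dtx3l, Parp9, Parp3 and Parp12 rose 14.7-fold to 37.5-fold, whereas Parp11, Parp4 and Parp8 rose 2.55-fold to 3.38-fold. The count of 9 of 9 has to be read against the table, in which 86.3% of tested genes rose in this comparison. The median log2 change of the members was 4.03, beside 1.90 for all tested genes. Relative to that background, Parp11, Parp4 and Parp8 lay at -0.14, -0.18 and -0.55 on the log2 scale. HighDose and PBS did not overlap in any of the 9 genes, with HighDose above, as was so for 85.8% of tested genes.

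**Figure D1:**
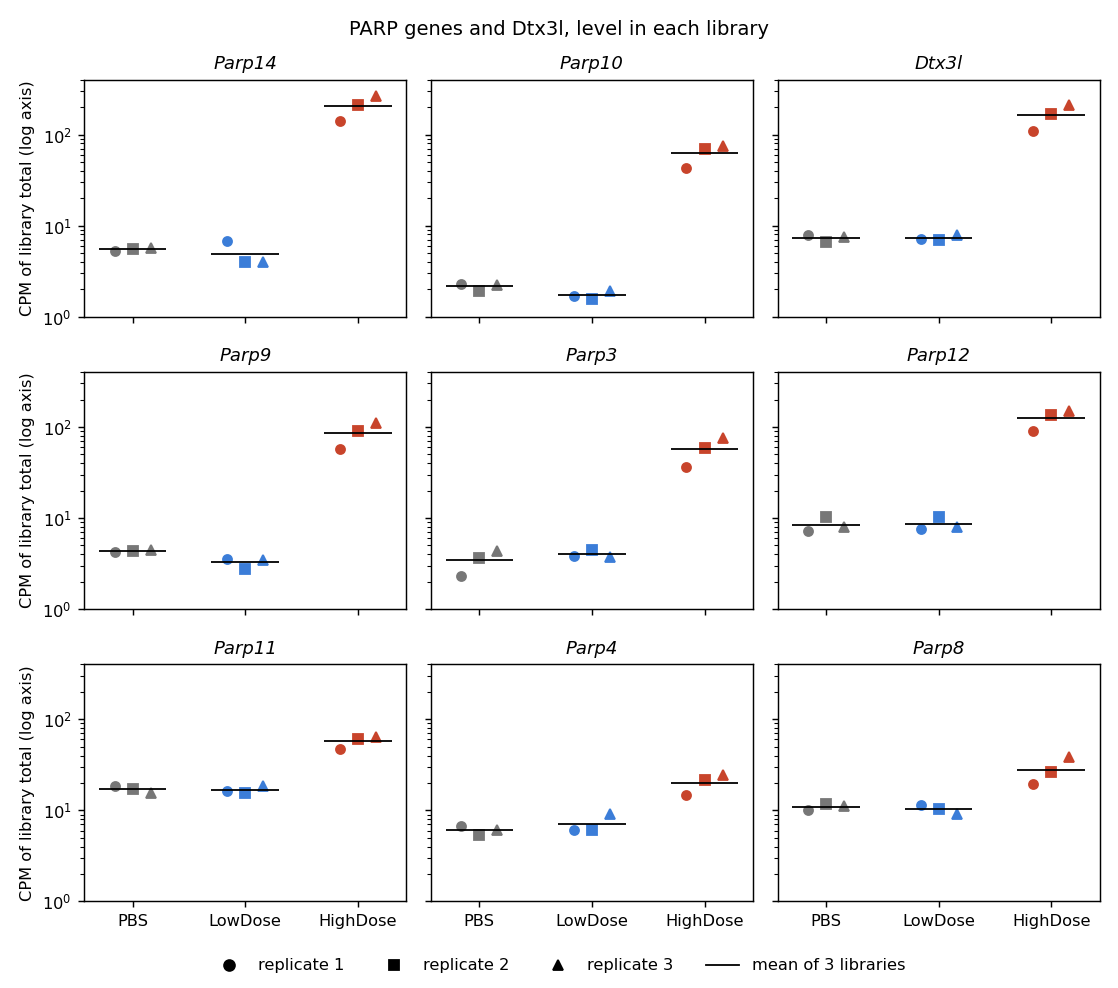
Level of each of the 9 genes in each library, in CPM of the library total on a log axis, with a symbol per replicate and a line at the mean of 3 libraries. All 9 HighDose groups sit above PBS, with Parp14 between 141 and 267 CPM in HighDose, and LowDose overlaps PBS except in Parp9 and Parp10.

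The partners Parp9 and Dtx3l both rose, by similar folds. Dtx3l (ENSMUSG00000049502) had 7.91, 6.68 and 7.43 CPM in PBS, 7.16, 6.93 and 7.85 CPM in LowDose, and 109, 168 and 209 CPM in HighDose. The HighDose libraries of Dtx3l stood apart from all others, and PBS and LowDose overlapped. The log2 change in HighDose against PBS was 4.46 ± 0.26 (SE, edgeR, adjusted p = 6.07e-20). Parp9 (ENSMUSG00000022906), the macrodomain partner, had 4.25, 4.31 and 4.42 CPM in PBS, 3.55, 2.74 and 3.47 CPM in LowDose, and 57.0, 89.4 and 111 CPM in HighDose. The PBS libraries of Parp9 differed by a ratio of 1.04, and all LowDose libraries lay under them. Its log2 change in HighDose against PBS was 4.31 ± 0.26 (edgeR, adjusted p = 4.03e-19).

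Both genes lie on chromosome 16 of mm10 and start head to head. In GENCODE M21 Dtx3l spans 35926511 to 35939151 on the minus strand and Parp9 spans 35938470 to 35972605 on the plus strand, so that the gene spans share 682 bases and their exons share 458 bases. Counts were not whole in 7 libraries for Dtx3l and in 5 for Parp9, which is what divided reads give, and the labels and file do not say whether counting used strand. The split of reads within the shared exons is therefore uncertain. Parp14 lies on the same strand as Dtx3l at 35832874 to 35871544, and the 54966 bases between them hold only pseudogenes in that annotation.

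The ratio of Dtx3l to Parp9 counts within a library, with 0.5 added to each count, which does not depend on how libraries are scaled, was 1.92, 1.88 and 1.88 in HighDose and 1.85, 1.55 and 1.68 in PBS. The mean log2 ratio was 0.92 ± 0.017 in HighDose and 0.76 ± 0.13 in PBS (SD, n = 3 each), a difference of 0.16 with p = 0.1 in an exact two-sided permutation test, the smallest p that 3 against 3 libraries can give. In LowDose the ratio was 2.01, 2.52 and 2.25, above all PBS libraries, a log2 difference of 0.41 (exact permutation p = 0.1). That test took the libraries as unpaired, although LowDose and PBS libraries of the same replicate number were correlated. HighDose lay below LowDose in the log2 ratio, with a difference of -0.25 (exact permutation p = 0.1). By FPKM in place of counts the difference between HighDose and PBS was -0.0065 (exact permutation p = 0.9).

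Among the transferases, Parp14 had the largest estimated change, and the difference from Parp10, the next, was not tested. Parp14 (ENSMUSG00000034422), a large macrodomain protein known to act on interleukin 4 signalling through STAT6, had 5.23, 5.57 and 5.67 CPM in PBS, 6.83, 4.0 and 3.95 CPM in LowDose, and 141, 211 and 267 CPM in HighDose. The LowDose libraries lay on both sides of PBS. The log2 change in HighDose against PBS was 5.23 ± 0.28 (edgeR, adjusted p = 4.55e-21). Ranked by log2 change from the highest, Parp14 was at place 200 of 1583.

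Parp10 (ENSMUSG00000063268), first described as a partner of MYC, had 2.29, 1.94 and 2.21 CPM in PBS, 1.69, 1.57 and 1.92 CPM in LowDose, and 42.6, 70.0 and 75.7 CPM in HighDose. All LowDose libraries lay just under the lowest PBS library. The log2 change in HighDose against PBS was 4.87 ± 0.27 (edgeR, adjusted p = 2.28e-20). Parp10 lies on chromosome 15 at 76231174 to 76243441, minus strand, where Plec overlaps it on the same strand, and its count was not whole in 2 libraries.

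Parp12 (ENSMUSG00000038507), which carries CCCH zinc fingers of the kind that bind RNA, had 7.25, 10.2 and 7.93 CPM in PBS, 7.59, 10.2 and 8.01 CPM in LowDose, and 90.7, 134 and 149 CPM in HighDose. PBS and LowDose covered almost the same range. The log2 change in HighDose against PBS was 3.88 ± 0.25 (edgeR, adjusted p = 3.09e-18). It spans 39086410 to 39118349 of chromosome 6 on the minus strand.

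Parp3 (ENSMUSG00000023249), an enzyme of DNA double-strand break repair, had a change between those of Parp9 and Parp12. It had 2.29, 3.68 and 4.38 CPM in PBS, 3.79, 4.45 and 3.69 CPM in LowDose, and 36.1, 59.1 and 74.9 CPM in HighDose. The PBS libraries differed by a ratio of 1.91, the widest PBS spread of the 9 genes. The log2 change in HighDose against PBS was 4.03 ± 0.28 (edgeR, adjusted p = 2.82e-17). The gene spans 106470322 to 106476949 of chromosome 9 on the minus strand, where Rrp9 overlaps it on the plus strand.

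Of the 3 genes with small changes, Parp11 spans 127446840 to 127494261 of chromosome 6 on the plus strand. Parp4 spans 56575619 to 56659794 of chromosome 14 on the plus strand, and Parp8 spans 116854820 to 117025537 of chromosome 13 on the minus strand. Parp11 (ENSMUSG00000037997), found at nuclear pores and known in mice for shaping the sperm nucleus, had 18.6, 17.1 and 15.5 CPM in PBS, 16.4, 15.6 and 18.5 CPM in LowDose, and 47.7, 61.1 and 64.4 CPM in HighDose. Its log2 change in HighDose against PBS was 1.76 ± 0.22 (edgeR, adjusted p = 1.34e-09). Parp4 (ENSMUSG00000054509), a component of the vault particle, had 6.81, 5.42 and 6.13 CPM in PBS, 6.15, 6.16 and 9.14 CPM in LowDose, and 14.7, 21.5 and 24.4 CPM in HighDose. It rose by 1.72 ± 0.25 on the log2 scale (edgeR, adjusted p = 4.87e-08). Parp8 (ENSMUSG00000021725), a transferase that adds single units, had 10.2, 11.6 and 11.2 CPM in PBS, 11.4, 10.4 and 9.14 CPM in LowDose, and 19.6, 26.3 and 38.3 CPM in HighDose. Its log2 change was 1.35 ± 0.24 (edgeR, adjusted p = 1.86e-06).

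**Figure D2:**
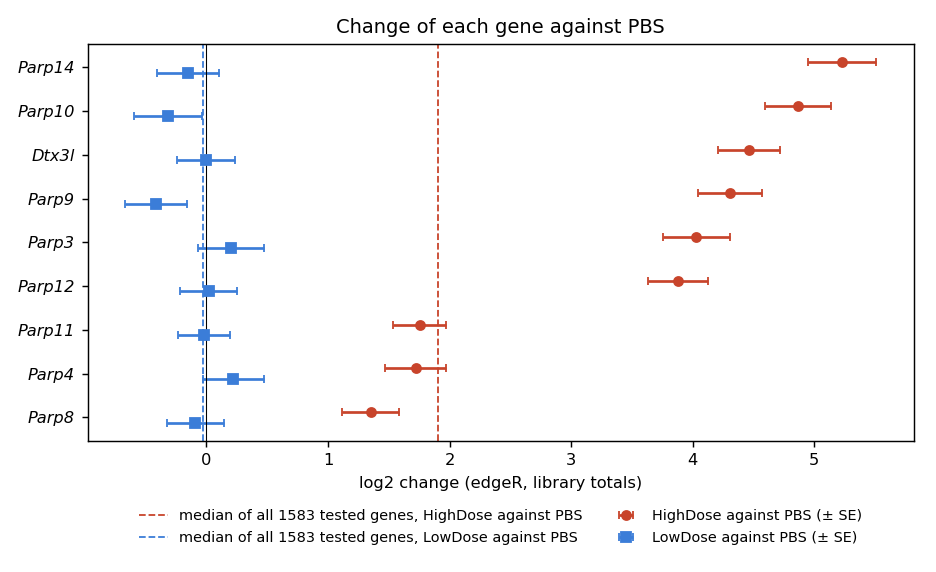
Log2 change ± SE of each gene (edgeR, library totals) in HighDose against PBS and in LowDose against PBS, with dashed lines at the medians of all 1583 tested genes. In HighDose 6 genes lie between 3.88 and 5.23, right of the median of 1.90, and Parp11, Parp4 and Parp8 lie left of it, while in LowDose all lie between -0.41 and 0.22.

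The small changes depended on the scaling, and that of Parp8 turned round. When libraries were scaled on the listed genes alone, with TMM, with size factors of DESeq2 or with their summed counts, 6 members rose and 1, Parp8, fell, at -0.38, -0.35 and -0.35 (edgeR, adjusted p = 0.0337, 0.0484 and 0.0409). Parp11 (0.055, 0.083 and 0.086) and Parp4 (-0.00068, 0.030 and 0.030) did not pass there. TMM and DESeq2 take most listed genes as unchanged, and summed counts take the listed total as constant. They moved the median of all tested genes to 0.19, 0.22 and 0.22. Under them 600, 605 and 607 of all tested genes rose and 464, 455 and 453 fell, whereas with library totals 1366 rose and 169 fell. The gap between the highest and the lowest member, Parp14 and Parp8, was 3.88 on the log2 scale under all 4 scalings.

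**Figure D3:**
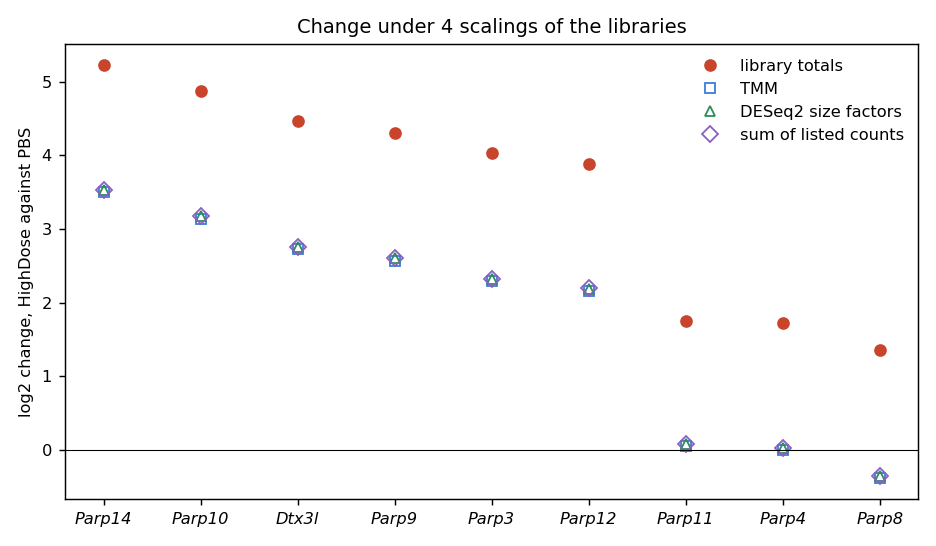
Log2 change in HighDose against PBS of each gene under library totals and 3 scalings within the listed genes. The 6 genes with large changes stay above 2 in each, while Parp11 and Parp4 lie near 0 and Parp8 at -0.38 to -0.35 in the scalings within the listed genes.

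HighDose libraries differed among themselves in the same way for all 9 genes, with replicate 1 lowest and replicate 3 highest, an arrangement that 61.7% of all tested genes shared. The ratio of the highest to the lowest HighDose library ran from 1.35 in Parp11 to 2.07 in Parp3, with a median of 1.89, against 1.66 over all tested genes. The listed genes together held 3.90%, 5.21% and 6.04% of the reads in HighDose replicates 1 to 3. With any 1 library left out, all 9 changes in HighDose against PBS still passed, and the lowest value was 1.06, for Parp8.

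Summed markers of immune cells were higher in the same libraries. Markers were listed only if some pair of groups differed at least 2-fold. Counts of markers that rose have to be read against the 86.3% of tested genes that rose in HighDose against PBS. Summed over the 12 T cell markers in the table of a list of 14, HighDose libraries had 20.4 to 42.5 CPM and PBS libraries had 1.26 to 1.84 CPM. For 9 of 9 NK and cytotoxic markers the sums were 39.9 to 69.3 CPM in HighDose and 0.436 to 0.872 CPM in PBS, and for 8 of 12 monocyte and macrophage markers they were 157 to 274 CPM in HighDose and 3.97 to 4.96 CPM in PBS. The 9 of 15 microglial markers listed summed to 469 to 541 CPM in HighDose and 237 to 301 CPM in PBS, but 6 of them rose and 3 fell. P2ry12, Fcrls and Gpr34 were the 3 that fell, at -0.97 ± 0.22, -1.38 ± 0.23 and -1.07 ± 0.25 on the log2 scale (edgeR, adjusted p = 9.04e-05, 9.61e-07 and 0.000115). Of the monocyte and macrophage markers 7 rose and 1, Cd163, fell, at -1.59 ± 0.49 (edgeR, adjusted p = 0.0025). Of these markers Cd3d was at 0 in all PBS libraries. Others, such as Nkg7 (mean 0.034 CPM) and Prf1 (mean 0.016 CPM), lay under the level of 3 counts in PBS. B cell markers, 5 of 8 listed, summed to 3.59 to 8.54 CPM in HighDose and 0.709 to 1.11 CPM in PBS. Of them 4 were tested and 3 rose, while Cd79b, at 1.01 ± 0.53, did not pass (edgeR, adjusted p = 0.0680). The 2 of 10 astrocyte markers listed summed to 444 to 633 CPM in HighDose and 144 to 177 CPM in PBS. The 3 of 9 oligodendrocyte markers listed summed to 797 to 1089 CPM in HighDose and 1663 to 2182 CPM in PBS. Of the cortical neuron markers 0 of 13 are listed, so the cortical label could not be checked, and the 13 striatal markers summed to 376 to 441 CPM in HighDose and 1083 to 1616 CPM in PBS. In bulk tissue more cells of a type and more RNA per cell cannot be told apart, and the part of these cells in the change of the PARP genes was not tested.

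Compared per length, the order of the genes differed between groups. In PBS, Parp11 had the highest level at 7.05 ± 0.63 FPKM (SD, n = 3), followed by Parp8 at 3.67 ± 0.21 FPKM and Parp12 at 2.62 ± 0.48 FPKM, and the libraries of these 3 genes did not overlap. Parp3, which overlapped Parp12, Dtx3l and Parp9 followed at 1.62, 1.38 and 1.36 FPKM with overlapping libraries, then Parp4 at 0.960 FPKM. Parp14 and Parp10 came last at 0.740 and 0.720 FPKM, also overlapping. LowDose had the same order except that Parp4, at 1.12 FPKM, stood above Parp9, at 1.07 FPKM, and these overlapped, as did Parp8 and Parp12.

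In HighDose, Parp12 had the highest mean at 38.6 ± 9.42 FPKM, and the next were Dtx3l at 30.6 ± 9.41, Parp9 at 30.4 ± 9.90, Parp14 at 27.8 ± 8.50, Parp3 at 25.7 ± 9.24, Parp11 at 19.9 ± 4.37 and Parp10 at 19.2 ± 5.48 FPKM. Each of these overlapped its neighbour, so their order is not resolved by 3 libraries. Parp8 at 9.45 ± 3.22 FPKM overlapped Parp10 by a single library, and Parp4 at 3.16 ± 0.79 FPKM lay below all others.

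The deposited FPKM values also carry an implied transcript length for each gene and library, which follows from count, FPKM and library total. For Dtx3l this length stayed between 5291 and 5310 bases and for Parp12 between 3224 and 3237 bases in all 9 libraries, near their longest annotated transcripts of 5309 and 3231 bases. For Parp11, with 10 annotated transcripts of 500 to 3746 bases, it was 2611, 2240 and 2435 bases in PBS, 2054, 2573 and 2148 bases in LowDose, and 3032, 3137 and 2634 bases in HighDose. Every HighDose library of Parp11 thus lay above every other library, though HighDose replicate 3 exceeded PBS replicate 1 by little. Parp9 went the other way, with 3037, 3341 and 3177 bases in PBS, 2862, 2949 and 3339 bases in LowDose, and 2882, 2786 and 2822 bases in HighDose. Rounding of FPKM put PBS replicate 1 of Parp9 between 3026 and 3048 bases, above all HighDose libraries. A change of this length is a change in the estimated mix of transcripts, and which transcripts it reflects was not measured.

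**Figure D4:**
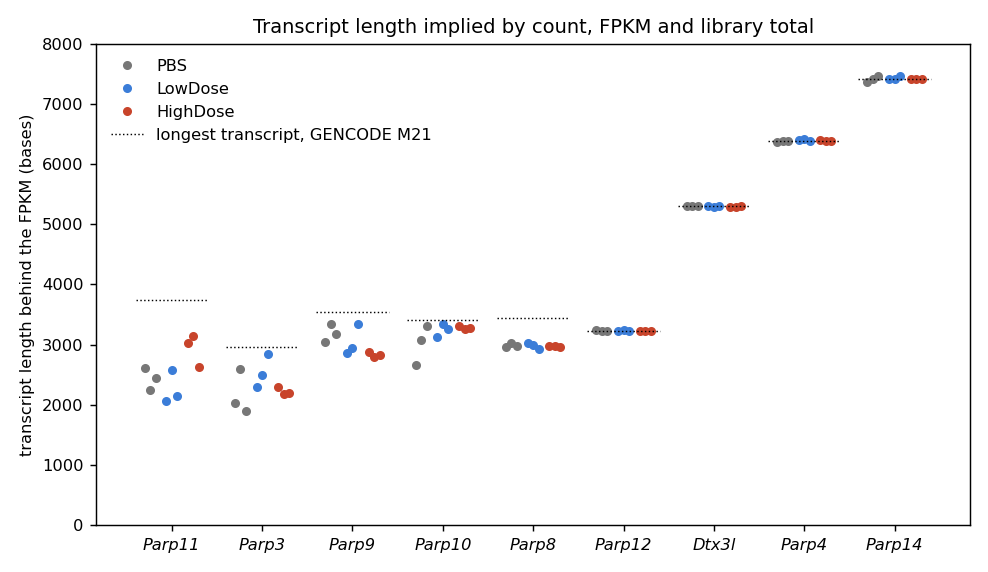
Transcript length in bases implied by count, FPKM and library total for each gene and library, with a dotted line at the longest GENCODE M21 transcript. Parp11 lies higher in HighDose (2634 to 3137 bases) than in PBS (2240 to 2611 bases), Parp9 lies lower in HighDose than in PBS, and Parp12, Dtx3l, Parp4 and Parp14 stay at their longest transcript.

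Windows of 300 bases at the transcription start, 250 before to 50 after, were taken from RefSeq (GRCm38.p6) for 6 of the 9 genes, in 7 windows since Parp11 has 2 starts: Dtx3l, Parp3, Parp4, Parp8, Parp11 and Parp12. They were searched on both strands for GAAA, any 2 bases and GAAA again, a core of the interferon-stimulated response element, and for TTCNNNGAA, a core of the gamma-activated site. The first occurred in 3.44% and the second in 8.30% of all 32851 windows of that table. Of the members, Parp4 and Parp11 held the first core, and Parp11 also held the second. The other 4 genes, Dtx3l, Parp3, Parp8 and Parp12, held neither in these windows. The upstream stretches of Parp4, Parp11 and Parp12 are shown because they set 2 genes with small changes and a match beside 1 with a large change and none. They were picked with the changes known. Parp8, with a small change, had no match, and Parp9, Parp10 and Parp14, with large changes, had no window. Letters in capitals mark matches to the first core on either strand.
Parp4, chr14:56575426-56575618, plus strand, ending at the base before the start: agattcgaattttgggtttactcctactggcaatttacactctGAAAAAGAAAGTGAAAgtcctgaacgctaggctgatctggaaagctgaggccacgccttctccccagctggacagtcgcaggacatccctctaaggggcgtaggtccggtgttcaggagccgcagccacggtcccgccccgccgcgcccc
Parp11, chr6:127446590-127446839, plus strand, ending at the base before the start: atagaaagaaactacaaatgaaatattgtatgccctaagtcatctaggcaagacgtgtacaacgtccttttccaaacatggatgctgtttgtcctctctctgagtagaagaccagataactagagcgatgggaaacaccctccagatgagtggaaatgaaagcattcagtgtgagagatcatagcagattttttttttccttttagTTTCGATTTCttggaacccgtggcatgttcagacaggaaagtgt
Parp12, chr6:39118350-39118599, minus strand, ending at the base before the start: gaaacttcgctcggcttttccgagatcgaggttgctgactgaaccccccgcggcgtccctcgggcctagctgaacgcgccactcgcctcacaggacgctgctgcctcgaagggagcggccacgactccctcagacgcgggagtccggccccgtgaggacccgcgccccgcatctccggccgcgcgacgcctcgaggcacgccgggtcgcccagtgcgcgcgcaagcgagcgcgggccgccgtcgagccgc

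In Parp4 there were 2 overlapping matches, GAAAAAGAAA and GAAAGTGAAA, that begin 150 and 144 bases before the start. In Parp11 the match GAAATCGAAA lies on the minus strand, its stretch beginning 44 bases before the start, and TTCTTGGAA begins 37 bases before the start and overlaps it. The second start of Parp11 had no match. A match is a run of letters and not a site shown to be bound.

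In LowDose against PBS, 0 of the 9 genes passed the edgeR test, and 0 passed by DESeq2 or limma-voom. At an unadjusted p under 0.05 there were 0 members and 185 of the 1583 tested genes. After adjustment 0.442% of all tested genes rose and 2.15% fell. With the replicate number as a block, 12 of all tested genes rose and 50 fell, where 7 and 34 did without it, and 0 members passed. The log2 changes ran from -0.41 in Parp9 to 0.22 in Parp4, with a median of -0.021 beside -0.028 for all tested genes. Parp9 was at -0.41 ± 0.26 (edgeR, adjusted p = 0.600) and Parp10 at -0.32 ± 0.28 (edgeR, adjusted p = 0.791). They were the 2 genes whose LowDose libraries all lay below PBS, as did 13.1% of tested genes. Parp14 at -0.15 ± 0.25 and Parp12 at 0.020 ± 0.23 did not pass either (edgeR, adjusted p = 0.911 and 0.996).

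In HighDose against LowDose all 9 genes rose, against 88.1% of tested genes. This comparison shares its HighDose libraries with the one against PBS and is not a second measurement of them. The log2 changes were 5.38 ± 0.28 for Parp14, 5.18 ± 0.28 for Parp10, 4.72 ± 0.27 for Parp9, 4.47 ± 0.26 for Dtx3l, 3.86 ± 0.25 for Parp12 and 3.83 ± 0.27 for Parp3. Parp11, Parp4 and Parp8 were at 1.78 ± 0.22, 1.5 ± 0.25 and 1.44 ± 0.24 (edgeR, largest adjusted p of the 9 genes 6.35e-07). Under the 3 scalings on the listed genes (TMM, DESeq2, summed counts) 6 members still rose, while 565, 576 and 524 of all tested genes rose and 461, 445 and 524 fell. Parp8 stood at -0.34, -0.30 and -0.47, and passed as a fall with summed counts alone (edgeR, adjusted p = 0.0565, 0.0920 and 0.00962).

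Other genes of ADP-ribosylation were mostly outside the table. Of 24 writers, readers and erasers beside the members, 2 were listed. Art2b did not pass the filter on low counts, and the one tested was Zc3hav1, the antiviral zinc finger protein also known as PARP13. It had 127 ± 35.1 CPM in HighDose and 5.68 ± 0.40 CPM in PBS (SD, n = 3 each), and rose by 4.48 ± 0.25 on the log2 scale (edgeR, adjusted p = 3.63e-20). Of a list of 10 genes drawn around the Deltex family, 1 was listed and tested, and that one is not a Deltex gene. This was Usp18, the protease that removes the ubiquitin-like protein ISG15, which rose by 7.06 ± 0.31 (edgeR, adjusted p = 1.99e-23).

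Among 28 genes that make or use NAD+, the substrate of PARP enzymes, 5 were tested, of which 4 rose and 1 fell in HighDose. Nampt, the rate-limiting enzyme of NAD+ salvage, had 186 ± 41.8 CPM in HighDose and 50.7 ± 3.37 CPM in PBS and rose by 1.88 ± 0.22 (edgeR, adjusted p = 3.12e-10). Kmo, of tryptophan breakdown, rose by 2.87 ± 0.44 (edgeR, adjusted p = 1.39e-07), and Bst1, which splits NAD+ at the cell surface, by 2.46 ± 0.53 (edgeR, adjusted p = 4.63e-05). Ido1, an enzyme of tryptophan breakdown, fell in HighDose by 1.42 ± 0.40 on the log2 scale (edgeR, adjusted p = 0.00107). In LowDose Ido1 was the one of the 5 that passed, at 0.987 ± 0.533 CPM in LowDose and 3.31 ± 1.11 CPM in PBS (SD, n = 3 each), a log2 change of -1.72 ± 0.41 (edgeR, adjusted p = 0.00948). The median of the 5 in HighDose against PBS was 2.02, beside 1.90 for all tested genes.

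The counts in the next lists have to be read against the 86.3% of tested genes that rose and the median of 1.90 over all of them. Of 21 genes that carry the interferon signal to the response element, 15 were listed, 13 were tested, and all 13 rose in HighDose against PBS, with a median of 3.70. Among those with the smallest p were Usp18, Irf7 at 6.19 ± 0.29 and Irf1 at 4.60 ± 0.25. The list of 57 interferon-stimulated genes without PARP members had 55 tested genes that all rose, with a median of 5.74 and a range of 1.41 to 9.71. Its genes with the smallest p were Cxcl10 at 9.28 ± 0.39, Zbp1 at 8.34 ± 0.35, Mx1 at 9.71 ± 0.42 and Oasl2 at 6.74 ± 0.29. The median of 4.03 for the PARP genes and Dtx3l lay between those of both lists, and Parp14, their highest, lay under the list median of 5.74 at 5.23. Usp18 stands in both lists.

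**Figure D5:**
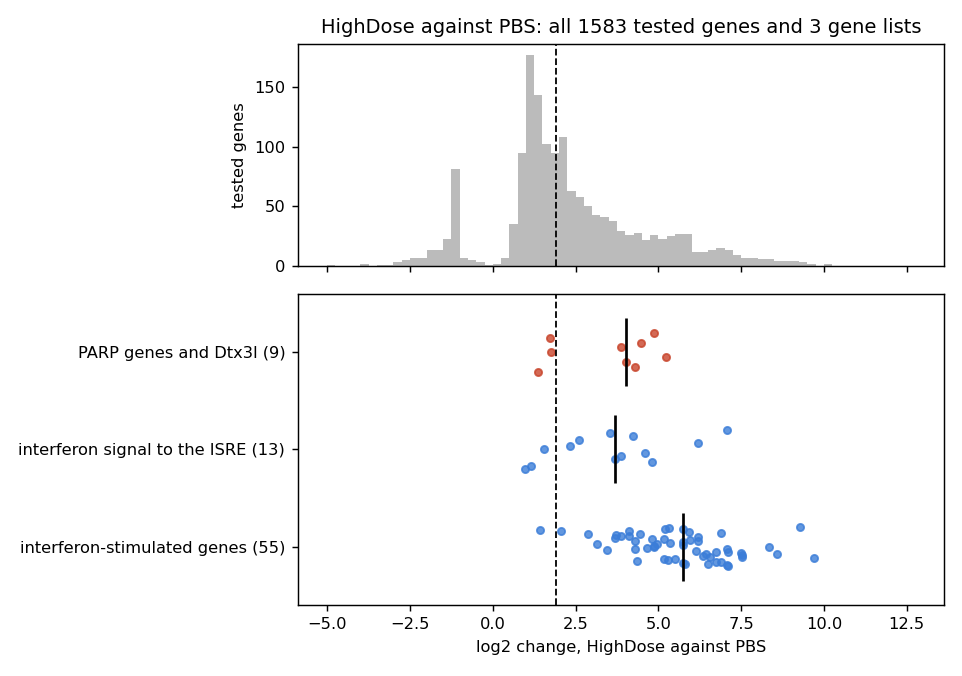
Log2 change in HighDose against PBS of all 1583 tested genes (histogram, dashed line at the median of 1.90) and of each gene in 3 lists, with a bar at each list's median. The medians are 4.03 for the PARP genes and Dtx3l, 3.70 for genes of the interferon signal and 5.74 for interferon-stimulated genes.

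Genes with the most similar profile were found as those with the smallest root mean square difference of centred log2(CPM + 0.5) over the 9 libraries, among 1259 named genes with a mean CPM of at least 1. Nearest to Dtx3l were Apol9a (0.097), Tor3a (0.11) and Il2rb (0.13), and nearest to Parp9 were Il2rb (0.13), Tor3a (0.14) and Serpina3g (0.16). Parp14 was nearest to the RNA helicase Ifih1 (0.13), Ifi203 (0.15) and Gbp7 (0.21), and Parp10 to the kinase Eif2ak2 (0.11) and Rtp4 (0.14). Parp12 was nearest to Lgals9 (0.096), H2-D1 (0.13) and Fgr (0.13), and Parp3 to Sp110 (0.14), Il18bp (0.16) and Gbp8 (0.18). Nearest to the weakly changed members were Hap1 (0.087), Prkcd (0.088) and Trim26 (0.10) for Parp11, Epha2 (0.155), Irf2 (0.155) and Vim (0.166) for Parp4, and Mdm2 (0.106), Gsap (0.111) and Jun (0.123) for Parp8. Among the members themselves the closest pair was Dtx3l and Parp9 (0.17), followed by Parp4 and Parp11 (0.19). Exons of Dtx3l and Parp9 share 458 bases, and the part of divided reads in their closeness was not tested. The addition of 0.5 CPM flattens genes with little RNA in PBS, so that closeness by this measure is not closeness in fold. Gbp8, at 0.0469 CPM in PBS, had a fitted log2 change in HighDose against PBS of 7.0 ± 0.58, against 4.03 for Parp3. Fgr, at 0.0812 CPM in PBS, had 6.32 ± 0.52, against 3.88 for Parp12. Apol9a, at 0.146 CPM in PBS, had 6.42 ± 0.43 and Il2rb, at 0.411 CPM, had 5.32 ± 0.35, against 4.46 for Dtx3l.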

How the data were processed

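RNA of 9 libraries was analysed from 1 table. Estimated counts per gene, on mouse build mm10, were deposited by the authors, and edgeR and DESeq2 are named in the submitters' processing notes without a role. FPKM values were deposited beside them, per the file headers. No aligner or counter is named in the labels or file. Counts, of which 7.66% to 14.0% per library were not whole, were rounded. Library totals were recovered as the median of count over FPKM and length in genes with a single GENCODE M21 transcript (at least 5 FPKM, 100 counts and 600 bases), with a scatter of 0.0113% to 0.0448%, and were the main scaling. In these libraries 3 counts equal 0.126 to 0.164 CPM.

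Genes passing filterByExpr (minimum count 10) entered 1 quasi-likelihood model of all 3 groups (edgeR 4.0.16, limma 3.58.1, R 4.3.3) with Benjamini-Hochberg adjustment and a threshold of 0.05. Dividing a log2 change by the root of its F statistic gave its SE. The fit was tested on simulated counts for HighDose against PBS. There 200 genes were changed, in equal numbers up and down, and 154 of the 1239 genes tested were changed ones. It called 61.8% of true changes of 1 on the log2 scale, in either direction, and 5.38% of its calls were false. In the data most tested genes were called and most of them rose, so these shares describe the simulation and not the listed genes. In LowDose and PBS all 3 pairs of libraries with the same replicate number had a correlation of deviations over 0.1 (0.25, 0.17 and 0.14). The numbers were therefore taken to pair them, from the data and not from the labels. For pairs with HighDose the correlations were not all over 0.1. The main model and the permutation tests used no block for the number, which entered only as an alternative. Alternatives were the scalings named in the report, other filters, unrounded counts, DESeq2 1.42.0, limma-voom, only the compared groups, a block for the replicate number and leaving out each library. The members, lists and tests were chosen with earlier results of these data known. Named were all members, the 3 genes of most similar profile for each, every called gene of the ADP-ribosylation and Deltex lists, and the 4 called genes with the smallest p of the other lists. One item that these rules name is not reported here. Python 3.11.15, pandas 2.3.3, scipy 1.17.1 and matplotlib 3.10.9 were used.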

Additional observations from a re-analysis of the deposited data

How the results depend on the processing

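In HighDose against PBS and against LowDose, 9 members were called under the 16 alternatives other than the scalings within the listed genes, leaving out each library included. Those 3 scalings within the listed genes changed calls. With TMM, then size factors of DESeq2, then the listed sum, Parp8 stood at -0.38, -0.35 and -0.35 against PBS and at -0.34, -0.30 and -0.47 against LowDose. Parp4 stood at -0.00068 under TMM against PBS, and at -0.26, -0.22 and -0.40 against LowDose. Parp11 was at -0.10 against LowDose under the listed sum. TMM and DESeq2 assume that most listed genes are unchanged, and the listed sum that their total is constant.

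In LowDose against PBS the members stayed uncalled under all alternatives. Values near 0 changed sign, with Parp11 at 0.023, 0.012 and 0.19 and Dtx3l at 0.038, 0.028 and 0.20 under the 3 scalings, and Parp8 at 0.12 and Parp14 at 0.057 under the listed sum. Leaving out each library gave -0.019 to 0.41 for Parp3, -0.095 to 0.046 for Parp11, -0.12 to 0.18 for Parp12 and -0.068 to 0.051 for Dtx3l. The 41 calls among all tested genes became 6, 6 and 11 under the 3 scalings and 26 to 79 without 1 library (79 without LowDose replicate 1, 26 without LowDose replicate 2).

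With the replicate number as a block there were 62 calls in LowDose against PBS (41 without it), and no call of a member changed in the 3 comparisons. The deviations of same-numbered libraries correlated at 0.069, -0.0057 and 0.15 in HighDose and PBS and at 0.18, 0.014 and 0.083 in HighDose and LowDose, so the number is not taken as a pairing there. The Dtx3l to Parp9 difference was -0.0065 by FPKM, and 0.10 to 0.23 without 1 library.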
